A study of Mus musculus with 15 samples.

Results

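The genes examined here encode 9 transcription factors of mesenchymal cells, Snai1, Snai2, Twist1, Twist2, Zeb1, Zeb2, Prrx1, Prrx2 and Foxc2, together with Cdh2, the gene of N-cadherin. Every probe set annotated to one of these 10 genes was taken, whatever its signal, which gave 24 of the 45037 probe sets of the array that are not controls, and 10 of the 18193 genes that a probe set names. The data are 15 Affymetrix arrays of mouse RNA, 3 for each of 5 groups. The groups were the embryonic stem (ES) cell line CL11, the lines of induced pluripotent stem (iPS) cells IP14D-1, IP14D-101 and IP20D-3, and mouse embryonic fibroblasts (MEF). The labels name MEF as the cell type that the iPS lines were made from. CL11, IP14D-1, IP20D-3 and MEF had the B6D2F1 background and IP14D-101 had the C57x129S2 background. The MEF arrays are thus not of the background of IP14D-101. Line and background cannot be told apart for IP14D-101, and this holds for its changes against MEF too. The ES and iPS lines had grown with LIF on feeder MEF stopped with mitomycin C, in medium containing either serum or a replacement for it; which line had which is not stated. Each ES or iPS group is a single line, the samples within a group are described as biological replicates, and the p values measure the spread between these samples only.

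An epithelial-to-mesenchymal transition (EMT) is the change in which cells in a sheet lose E-cadherin and their junctions and become motile fibroblast-like cells, as happens at the primitive streak and in the neural crest. Snail and Zeb proteins are zinc finger factors that bind E-box sequences and recruit co-repressors to genes such as Cdh1, while Twist proteins are basic helix-loop-helix factors, Prrx proteins are homeodomain factors and Foxc2 is a forkhead factor of mesenchyme. Fibroblasts that are reprogrammed to iPS cells pass through the reverse change, and mouse ES cells grow as compact colonies joined by E-cadherin.

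Because the members moved together between the pluripotent lines and MEF, the sequence before the start site is shown for a gene of each of 3 families. Windows of Snai1, Twist1, Twist2, Prrx1, Prrx2 and Zeb2 in the RefSeq promoter table (GRCm38.p6) were examined. The 250 bases before the start site are given 5′ to 3′ on the gene's strand, with each CG dinucleotide in capitals. The Snai1 window is chr2:167537945-167538194 on the plus strand, the Twist1 window is chr12:33957421-33957670 on the plus strand, and the Prrx1 window is chr1:163313651-163313900 on the minus strand. The table's Prrx1 start site lies inside the annotated span of the gene, which ends at base 163315145, so that window stands before an internal start and not at the gene's outer end.
Snai1: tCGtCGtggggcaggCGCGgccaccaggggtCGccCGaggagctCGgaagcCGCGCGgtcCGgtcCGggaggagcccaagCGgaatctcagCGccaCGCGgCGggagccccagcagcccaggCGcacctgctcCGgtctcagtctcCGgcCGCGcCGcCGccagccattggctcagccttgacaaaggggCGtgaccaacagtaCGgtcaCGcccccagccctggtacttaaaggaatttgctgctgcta
Twist1: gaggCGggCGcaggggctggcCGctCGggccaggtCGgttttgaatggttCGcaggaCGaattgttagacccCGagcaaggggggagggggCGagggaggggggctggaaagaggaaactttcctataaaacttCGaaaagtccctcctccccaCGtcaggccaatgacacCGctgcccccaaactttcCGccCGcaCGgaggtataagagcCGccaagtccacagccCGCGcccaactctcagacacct
Prrx1: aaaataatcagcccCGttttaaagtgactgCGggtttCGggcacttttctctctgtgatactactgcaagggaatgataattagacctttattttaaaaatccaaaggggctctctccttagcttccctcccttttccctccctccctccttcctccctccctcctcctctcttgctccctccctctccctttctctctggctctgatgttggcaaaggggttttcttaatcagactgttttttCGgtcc
The windows differed in base composition. Snai1 had a GC content of 70% and 27 CG dinucleotides, Twist1 had 62.4% and 18, and Prrx1 had 47.6% and 4. The median GC content over 32841 windows of this length was 52.4%. The E-box CACCTG, which reads CAGGTG on the other strand, is the form bound by Snail and Zeb factors and was searched on both strands. It occurred in 17.2% of all windows, and any CANNTG, of which it is 1 form, in 66.2%. Among the windows examined, only that of Snai1 held it, at position -126 from the start site, shown in capitals with 10 bases on each side.
Snai1 E-box: agcccaggcgCACCTGctccggtctc
A match describes the letters in the window, and binding was not measured.

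Values are array signals on a log2 scale after scaling, written here as log2 signal, and a change is the difference of 2 group means on that scale. Background was a log2 signal of 11.06, the 95th percentile of 43 probe sets for olfactory receptor genes, and a group whose mean lay under it is called below background. Where the dimmer group was below background, the fold is a lower limit, and where both were, no fold is given. Levels of different probe sets are not compared with each other. Arrays of 1 group correlated at 0.916 to 0.942, and the MEF arrays correlated with arrays of other groups at no more than 0.813. For each array of a pluripotent line, the highest correlation with an array of another line was 0.911 to 0.927. By this measure the lines were set apart from MEF but hardly from each other. Pou5f1, the central pluripotency factor, was at least 204-fold to 234-fold higher in the lines than in MEF, and all 10 pluripotent markers rose in every line. All 12 fibroblast markers were above background in MEF.

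**Figure D1:**
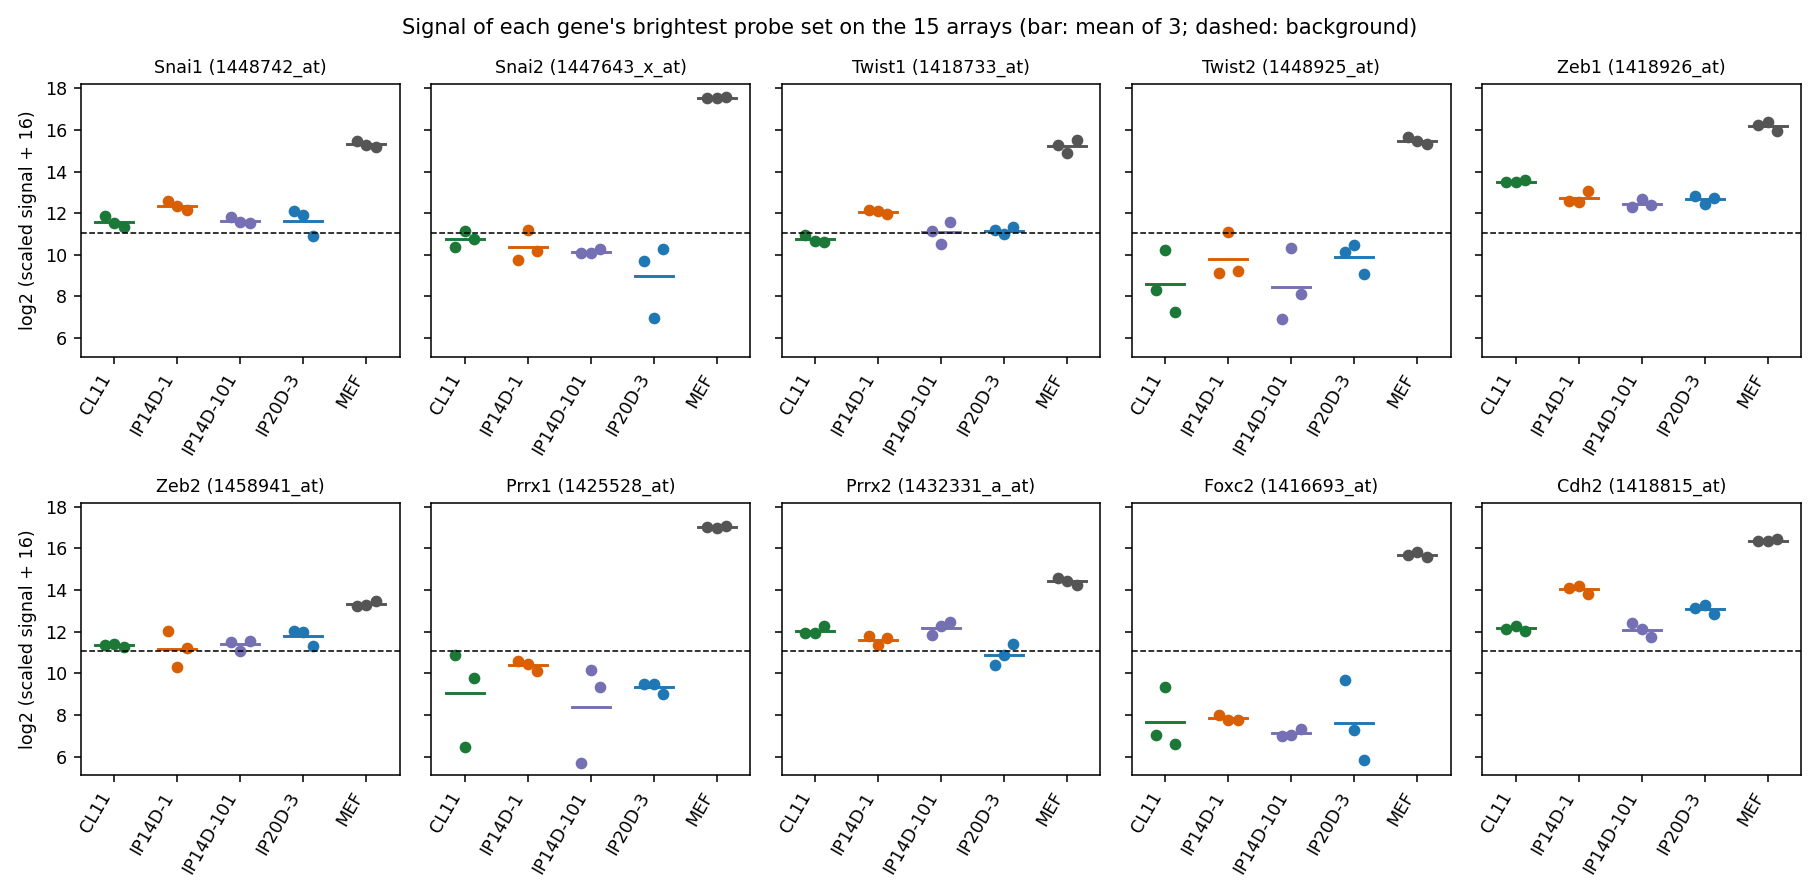
Log2 signal of the brightest probe set of each of the 10 genes (vertical axis) on the 15 arrays, by group (horizontal axis), with a bar at the mean of 3 arrays and the background of 11.06 dashed. The MEF points lie above the points of all 4 lines in every panel.

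All 10 genes were lower in each pluripotent line than in MEF. Of the 24 probe sets, 21 fell in CL11 cells, 22 in IP14D-1 cells, 22 in IP14D-101 cells and 22 in IP20D-3 cells, and 0 rose. Among all probe sets, 21.3% fell and 22.1% rose in CL11, 18.7% fell and 23.3% rose in IP14D-1, 23.9% fell and 21.8% rose in IP14D-101, and 20.3% fell and 23.5% rose in IP20D-3. The median change of the 24 was -4.55, -3.77, -4.64 and -4.26 in that order of lines, against medians over all probe sets of -0.06, 0.11, -0.13 and 0.03. For the brightest probe set of each gene, every array of every line lay below every MEF array, which held for 27.5%, 24.8%, 28.7% and 25.9% of all probe sets. Above background were 6 of the 24 probe sets in CL11 cells, 7 in IP14D-1 cells, 6 in IP14D-101 cells and 6 in IP20D-3 cells, against 21 in MEF. The 4 comparisons share the MEF arrays, so their values are set side by side and not counted as repeats. In bulk samples such as these, fewer cells of a type and less RNA per cell cannot be told apart.

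**Figure D2:**
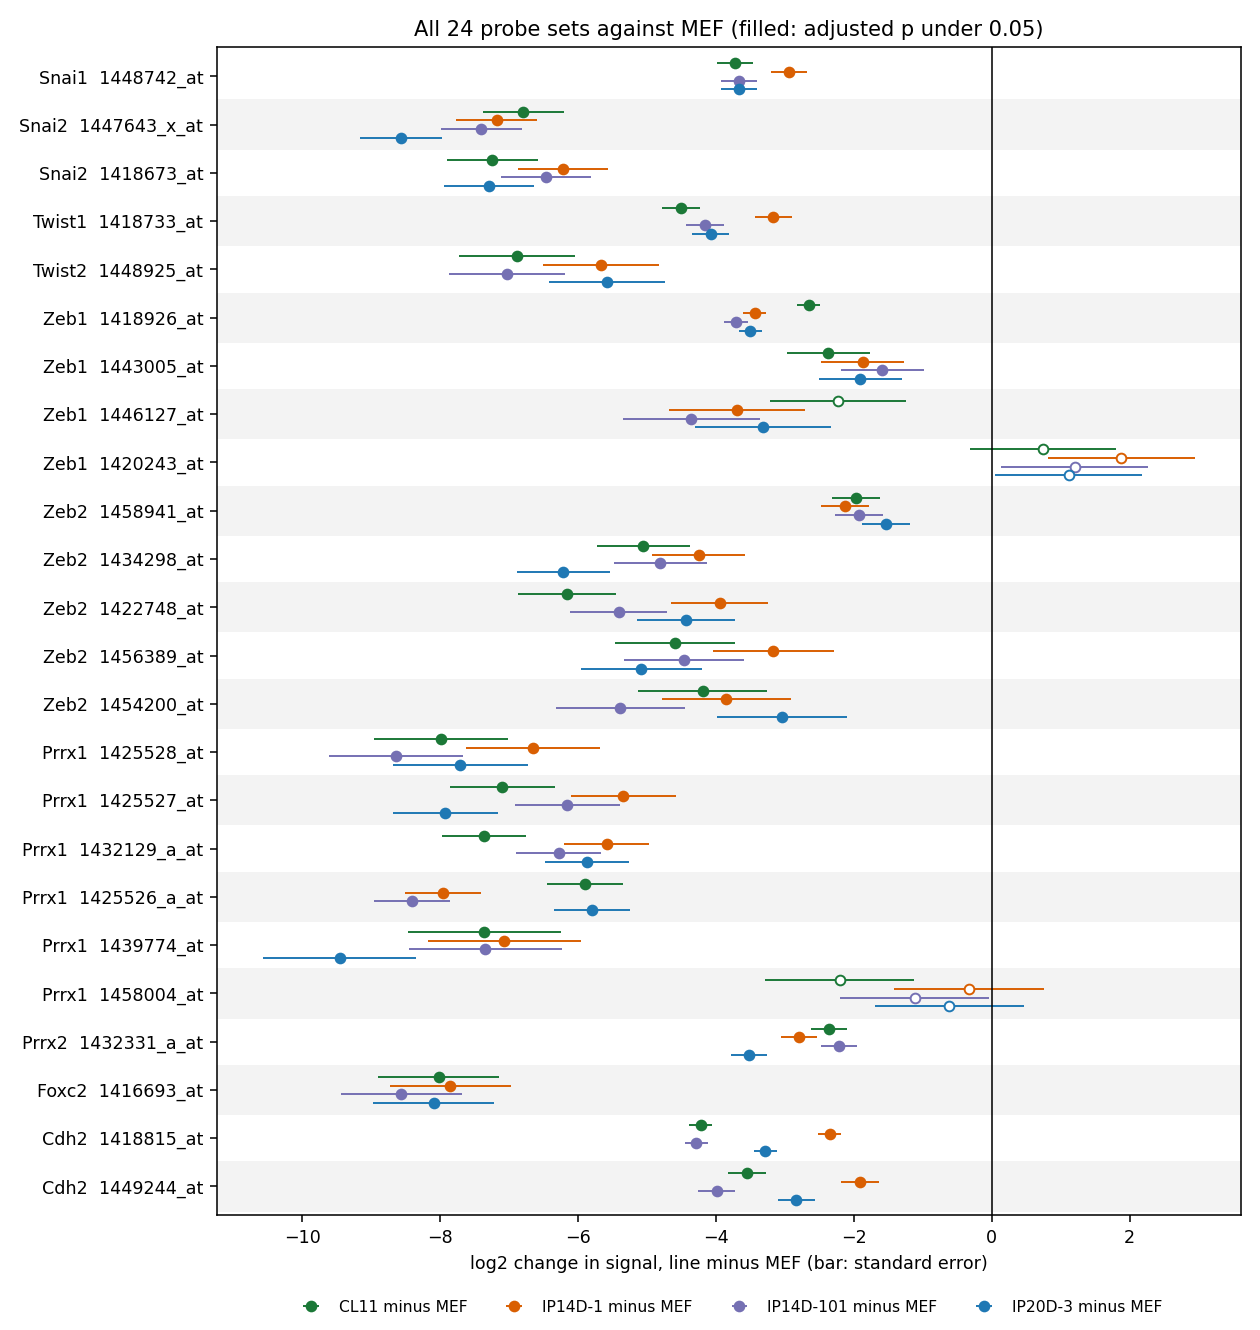
Log2 change of each of the 24 probe sets (vertical axis) in each line against MEF (horizontal axis), with standard errors and filled points for an adjusted p under 0.05. The called points all lie below 0, and the 2 probe sets without a call in any line are Zeb1 1420243_at and Prrx1 1458004_at.

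Snai1, the Snail factor needed for mesoderm to leave the primitive streak, kept a mean above background in all 4 lines, far below its MEF signal. Its single probe set read 11.87, 11.55 and 11.33 in CL11, 12.58, 12.34 and 12.17 in IP14D-1, 11.83, 11.56 and 11.52 in IP14D-101, and 12.10, 11.91 and 10.92 in IP20D-3. The MEF arrays read 15.48, 15.26 and 15.18. The lines did not overlap with MEF, and the IP14D-1 arrays lay above those of the other lines. The fall against MEF was 13.2-fold in CL11, 7.68-fold in IP14D-1, 12.7-fold in IP14D-101 and 12.7-fold in IP20D-3 (adjusted p between 5.48e-10 and 1.72e-08).

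Snai2, the family member of neural crest and fibroblasts, was below background in every line. Probe set 1447643_x_at read 10.37, 11.12 and 10.77 in CL11, 9.73, 11.17 and 10.19 in IP14D-1, 10.10, 10.07 and 10.26 in IP14D-101, 9.70, 6.98 and 10.26 in IP20D-3, and 17.52, 17.55 and 17.59 in MEF. Only CL11 replicate 2 and IP14D-1 replicate 2 passed the background value, and none came near the MEF arrays. The fall was at least 88.5-fold in CL11, 87.4-fold in IP14D-1, 89.7-fold in IP14D-101 and 89.7-fold in IP20D-3. The background corresponds to 1.11% of the mean MEF signal, so lower residual levels could not be measured. The second probe set, 1418673_at, fell at least 49.9-fold in each line. By its suffix, an x_at probe set can also pick up similar transcripts. The correlation of the pair over 15 arrays was 0.945, which mostly describes MEF against the lines.

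The Twist genes differed in how much signal was left. Twist1, required for cranial neural tube closure and mesoderm migration, read 10.97, 10.64 and 10.60 in CL11, 12.16, 12.11 and 11.96 in IP14D-1, 11.14, 10.54 and 11.58 in IP14D-101, and 11.19, 10.99 and 11.32 in IP20D-3. MEF read 15.29, 14.91 and 15.53. IP14D-1 stood clear of background on all 3 arrays, CL11 lay under it on all 3, and the other lines straddled it. The fall was at least 18.2-fold in CL11, 8.99-fold in IP14D-1, 17.9-fold in IP14D-101 and 16.9-fold in IP20D-3.

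Twist2, the related factor of dermal mesenchyme, read 8.32, 10.22 and 7.23 in CL11, 9.11, 11.11 and 9.22 in IP14D-1, 6.91, 10.33 and 8.10 in IP14D-101, and 10.16, 10.47 and 9.07 in IP20D-3. MEF read 15.65, 15.47 and 15.32. All line means were below background with arrays far apart, so the lines could not be ordered. The fall was at least 21.4-fold in CL11, 21.2-fold in IP14D-1, 21.4-fold in IP14D-101 and 21.4-fold in IP20D-3.

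Zeb1, a repressor of Cdh1 that is itself repressed by the miR-200 family, was above background in every line at its main probe set, 1418926_at. It read 13.48, 13.50 and 13.57 in CL11, 12.57, 12.54 and 13.09 in IP14D-1, 12.29, 12.70 and 12.39 in IP14D-101, and 12.80, 12.46 and 12.75 in IP20D-3. MEF read 16.21, 16.36 and 15.94. The CL11 arrays lay above all 9 iPS arrays and below all MEF arrays. The fall was 6.30-fold in CL11, 10.8-fold in IP14D-1, 13.1-fold in IP14D-101 and 11.3-fold in IP20D-3. Of its other probe sets, 1443005_at and 1446127_at were above background in MEF alone, and 1420243_at was below background in every group. Probe set 1446127_at did not pass in CL11 (change -2.24, adjusted p = 0.0780), and 1443005_at passed in IP14D-101 only narrowly (change -1.59, adjusted p = 0.0375).

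Zeb2, the Zeb factor of neural crest and mesenchyme, had 5 probe sets, all lower in every line, with falls of unequal size. The brightest, 1458941_at, read 11.36, 11.40 and 11.28 in CL11, 12.03, 10.33 and 11.22 in IP14D-1, 11.50, 11.09 and 11.58 in IP14D-101, 12.05, 11.97 and 11.33 in IP20D-3, and 13.23, 13.27 and 13.46 in MEF. The lines sat close to background and overlapped each other. The fall was 3.93-fold in CL11, 4.38-fold in IP14D-1, 3.81-fold in IP14D-101 and 2.91-fold in IP20D-3. The probe sets 1434298_at, 1422748_at and 1456389_at were below background in every line and fell at least 8.89-fold, 7.91-fold and 5.18-fold in each of them. Probe set 1454200_at was called lower in every line, but its MEF mean of 11.04 was itself below background and no fold is given.

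Prrx1, a homeobox factor of limb and craniofacial mesenchyme and a marker of fibroblasts, was below background in all 4 lines on all 6 of its probe sets. The brightest, 1425528_at, read 10.89, 6.49 and 9.78 in CL11, 10.62, 10.44 and 10.11 in IP14D-1, 5.70, 10.17 and 9.34 in IP14D-101, 9.51, 9.48 and 9.01 in IP20D-3, and 17.04, 16.99 and 17.10 in MEF. MEF lay far above every line. The fall was at least 63.2-fold in each line. Probe sets 1425527_at, 1432129_a_at, 1425526_a_at and 1439774_at fell at least 30.4-fold, 24.1-fold, 25.9-fold and 17.8-fold in each line, and 1458004_at was below background in MEF too. At 1425526_a_at, 4 of the 6 pairs of lines were called different with both means below background, so these calls have no measured fold.

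Prrx2, which acts beside Prrx1 in limb and craniofacial mesenchyme, kept a larger part of its MEF signal. Its probe set read 11.92, 11.96 and 12.29 in CL11, 11.80, 11.38 and 11.70 in IP14D-1, 11.85, 12.30 and 12.45 in IP14D-101, and 10.40, 10.91 and 11.41 in IP20D-3. MEF read 14.59, 14.44 and 14.25. IP20D-3 was the one line with a mean below background, and its arrays lay below those of CL11 and IP14D-101. The fall was 5.16-fold in CL11, 6.95-fold in IP14D-1, 4.67-fold in IP14D-101 and at least 9.49-fold in IP20D-3.

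Foxc2, a forkhead factor of paraxial mesoderm and lymphatic vessels, read 7.06, 9.36 and 6.61 in CL11, 8.0, 7.75 and 7.78 in IP14D-1, 7.01, 7.03 and 7.35 in IP14D-101, and 9.69, 7.26 and 5.85 in IP20D-3. MEF read 15.68, 15.83 and 15.58. All 12 line arrays were under background. The fall was at least 24.8-fold in each line.

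Cdh2 encodes N-cadherin, the adhesion molecule that replaces E-cadherin in many mesenchymal and neural cells. Probe set 1418815_at read 12.15, 12.27 and 12.05 in CL11, 14.11, 14.19 and 13.80 in IP14D-1, 12.40, 12.13 and 11.75 in IP14D-101, and 13.14, 13.31 and 12.85 in IP20D-3. MEF read 16.36, 16.34 and 16.45. Every line array was above background and below MEF, and the order of levels was IP14D-1, IP20D-3 and then CL11 with IP14D-101, which overlapped. The fall was 18.7-fold in CL11, 5.09-fold in IP14D-1, 19.5-fold in IP14D-101 and 9.75-fold in IP20D-3.

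The second Cdh2 probe set, 1449244_at, read 11.65, 11.10 and 11.64 in CL11, 13.16, 13.16 and 12.99 in IP14D-1, 10.47, 11.07 and 11.55 in IP14D-101, 11.94, 12.74 and 11.86 in IP20D-3, and 14.96, 15.05 and 15.04 in MEF. It gave the same order of means, IP14D-1 over IP20D-3 over CL11. The correlation between the pair was 0.964 over 15 arrays, a value that mostly describes MEF against the lines and not the order among them. IP14D-101 had a mean just below background here. The fall was 11.7-fold in CL11, 3.77-fold in IP14D-1, at least 13.9-fold in IP14D-101 and 7.14-fold in IP20D-3.

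As a percent of the mean MEF signal, Cdh2 at 1418815_at kept 5.34% in CL11 cells, 19.7% in IP14D-1 cells, 5.18% in IP14D-101 cells and 10.3% in IP20D-3 cells. Zeb1 kept 15.8%, 9.28%, 7.62% and 8.78% in the same order. Snai1 kept 7.60%, 13%, 7.83% and 8.29%. Zeb2 at 1458941_at was above its background of 20.7% as well, at 25.3%, 25.3%, 26.3% and 35%. The other Zeb2 probe sets were below background in every line, with means of at most 5.37% at 1434298_at, 6.43% at 1422748_at and 11.1% at 1456389_at. Cdh2, Zeb1, Snai1 and Zeb2 were the members whose brightest probe set had a mean above background in all 4 lines. At their brightest probe sets, Snai2 and Prrx1 had line means of at most 0.912% and 0.989%, both under their background percents of 1.11% and 1.57%. The lines grew on feeder MEF, and the summed signal of the 12 fibroblast markers was 0.439% of MEF in CL11 cells, 0.695% in IP14D-1 cells, 0.516% in IP14D-101 cells and 0.312% in IP20D-3 cells. Only 4, 7, 3 and 2 of the 12 markers were above background in these lines. The sums therefore include signal at background and do not measure a share of fibroblasts.

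**Figure D3:**
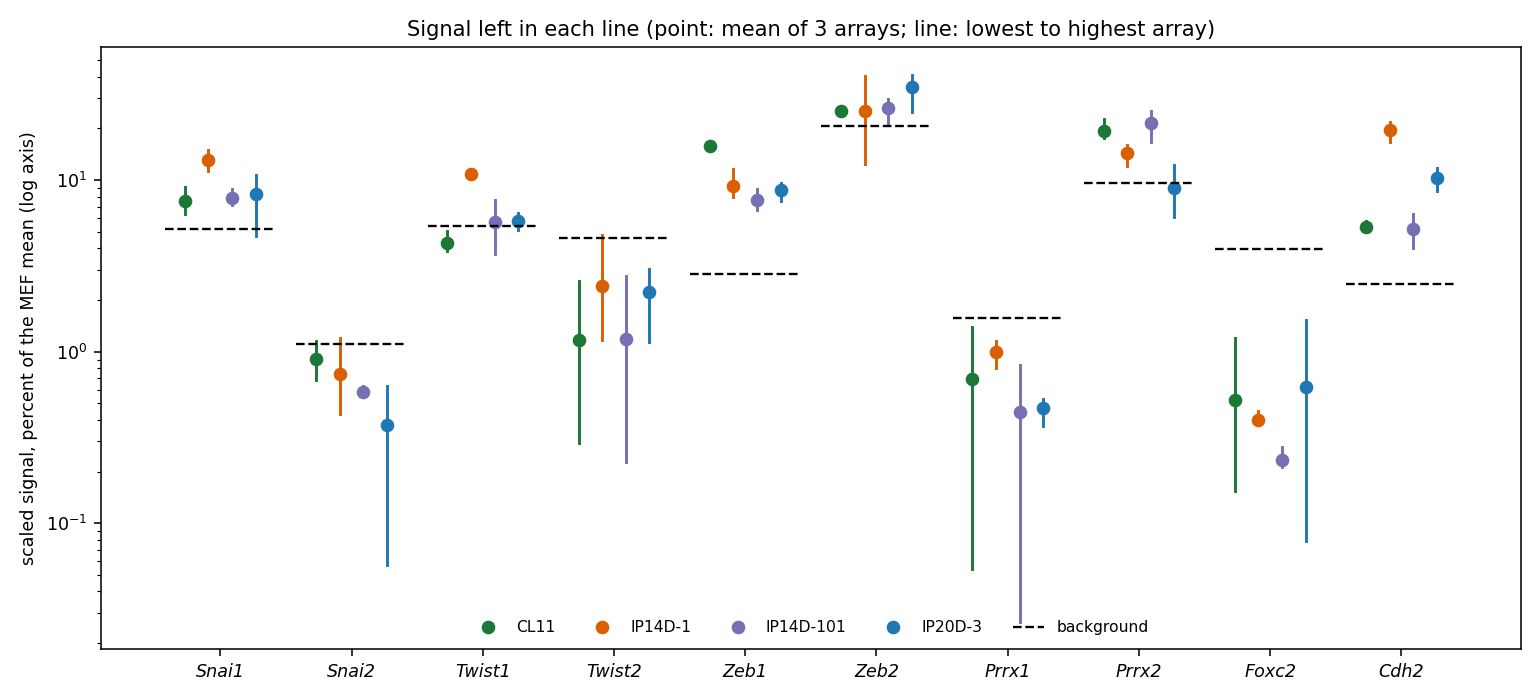
Scaled signal of the brightest probe set of each gene in each line as a percent of the mean MEF signal (vertical axis, log scale), with the mean of 3 arrays, a line over their range, and the background as a percent of MEF dashed. Cdh2, Zeb1, Snai1 and Zeb2 have all their line means above background, and those of Snai2, Twist2, Prrx1 and Foxc2 are below it.

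Whether the lines differed among themselves was tested in the same model, and since each line was set against the same MEF arrays, a difference between lines is also the difference of their changes against MEF. Between IP14D-1 and CL11, 5 of the 24 probe sets were higher in IP14D-1, where 9.42% of all probe sets were, and 2 were lower, where 7.78% were. Between IP14D-101 and CL11, 0 were higher and 2 lower, against 3.32% and 3.87% of all probe sets. In IP20D-3 against CL11, 1 was higher and 2 lower, against 7.6% and 6.87%. In IP14D-101 against IP14D-1, 0 were higher and 3 lower, against 9.5% and 13.9%. In IP20D-3 against IP14D-1, 1 was higher and 1 lower, against 2.74% and 2.74%. In IP20D-3 against IP14D-101, 3 were higher and 1 lower, against 10.5% and 7.67%. The 5 that were higher in IP14D-1 than in CL11 were Snai1, Twist1, both Cdh2 probe sets and Zeb2 1422748_at, the last below background in both. The count was 3 to 4 when any 1 array of IP14D-1 or CL11 was left out, and 3 for each IP14D-1 array. It was also 3 with quantile normalization and with median scaling. A mean above background in any line was reached by 7 of the 24 probe sets.

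These calls depend on how the arrays are scaled to each other. With each array scaled to its median, 26.4% of all calls in IP14D-1 against CL11 were higher, against 54.8% here. The same share was 64% against 46.2% in IP14D-101 and CL11, 35.1% against 52.5% in IP20D-3 and CL11, and 74.1% against 40.6% in IP14D-101 and IP14D-1. It was 68% against 50% in IP20D-3 and IP14D-1, and 29.1% against 57.8% in IP20D-3 and IP14D-101. The median over all probe sets moved with it, to -0.12 from 0.12 in IP14D-1 against CL11, and to 0.18 from -0.17 in IP14D-101 against IP14D-1. The changes of Zeb1 and Cdh2 given next as called were of larger size than these shifts.

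Cdh2 differed in 5 of the 6 pairs of lines at 1418815_at and in 3 of these at 1449244_at. At 1418815_at it was higher in IP14D-1 than in CL11 by 1.87 ± 0.17 (standard error), 3.67-fold, with adjusted p = 4.29e-07, and the second probe set gave 3.11-fold with adjusted p = 3.00e-04. It was higher in IP20D-3 than in CL11 by 0.94 ± 0.17, 1.92-fold (adjusted p = 6.67e-04), where the second probe set gave 0.72 and adjusted p = 0.0904. IP14D-101 was 3.84-fold lower than IP14D-1 (adjusted p = 2.69e-07), and the second probe set was at least 3.68-fold lower. IP20D-3 was 1.91-fold lower than IP14D-1 (adjusted p = 0.00213), where the second probe set gave -0.92 and did not pass (adjusted p = 0.0542). IP20D-3 was 2.00-fold higher than IP14D-101 (adjusted p = 3.39e-04), and the second probe set was at least 1.94-fold higher (adjusted p = 0.00524). IP14D-101 and CL11 overlapped, with a change of -0.06 ± 0.17.

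Marker lists of other cell types and RNA quality were set beside these values. Fibroblast markers above background numbered 4 of 12 in CL11 cells, 7 in IP14D-1 cells, 3 in IP14D-101 cells and 2 in IP20D-3 cells, against 12 in MEF. Their summed signal ran from 24391.6 to 26771.2 in CL11, from 40861.2 to 40937.4 in IP14D-1, from 28657.8 to 30765.3 in IP14D-101, from 16917.5 to 18517.8 in IP20D-3 and from 5453620 to 6077630 in MEF. Pdgfra, Pdgfrb, Dcn, Lum and Fbln5 were below background in IP14D-1, and Col1a1, Col1a2, Col3a1, Col6a3, Thy1, Postn and Tnc were above it. Of the 12, 5 were higher and 1 lower in IP14D-1 than in CL11, against 10.7% and 11.5% of all genes. In IP14D-101 against IP14D-1, 1 was higher and 8 lower, against 9.5% and 13.9% of all probe sets. In IP20D-3 against IP14D-1, 0 were higher and 6 lower, against 2.74% and 2.74%. Shares over genes differ from these. With 1 probe set per gene fitted, 2704 of 18193 genes were higher and 2379 lower in IP14D-101 against IP14D-1. In IP20D-3 against IP14D-1, 886 were higher and 787 lower.

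Of 14 primitive endoderm markers, 13 were lower in IP14D-1 than in CL11 and 13 in IP20D-3 than in CL11, the comparisons in which Cdh2 was higher. In IP20D-3 against IP14D-1, where Cdh2 was lower, 1 was higher and 2 were lower, against 2.74% and 2.74% of all probe sets. In IP14D-101 against IP14D-1, where Cdh2 was also lower, 13 were higher and 0 lower, against 9.5% and 13.9%. In IP20D-3 against IP14D-101, where Cdh2 was higher, 0 were higher and 12 lower, against 10.5% and 7.67%. In IP14D-101 against CL11, where Cdh2 was not called, 0 were higher and 1 lower, against 3.32% and 3.87%. These shares are over all probe sets, while each marker is 1 probe set of its gene. With 1 probe set per gene fitted, 2005 of 18193 genes were higher and 2266 lower in IP20D-3 against IP14D-101. In IP14D-101 against CL11, 1099 were higher and 995 lower. Of all genes, each by its brightest probe set, 10.7% were higher and 11.5% lower in IP14D-1 than in CL11, and 9.45% were higher and 10.1% lower in IP20D-3 than in CL11. The summed signal of the endoderm markers ran from 573352 to 591025 in CL11, from 135067 to 154777 in IP14D-1, from 417199 to 486600 in IP14D-101 and from 120766 to 128207 in IP20D-3. In MEF it ran from 917793 to 975467, above every line, so the sum is not particular to primitive endoderm. Gata6, a founding factor of that lineage, was below background in IP14D-1 and IP20D-3. Actin probe sets at the 3′ and 5′ ends, whose ratio follows RNA quality, gave ratios of 1.21 ± 0.0184 in CL11 cells, 1.37 ± 0.0365 in IP14D-1 cells, 1.22 ± 0.0636 in IP14D-101 cells and 1.28 ± 0.0263 in IP20D-3 cells (SD, n = 3). The same ratio for Gapdh was 0.809 ± 0.0163, 0.85 ± 0.00434, 0.795 ± 0.0222 and 0.795 ± 0.00563 in that order, with IP20D-3 below CL11. Of the neural markers, 2 of 8 were higher and 0 lower in IP14D-1 than in CL11, 3 of 8 were higher and 1, Sox1, was lower in IP20D-3 than in CL11, and Pax3 and Zic1 were below background in all 4 lines. The part of these in the Cdh2 differences was not tested.

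Twist1 and Snai1 were higher in IP14D-1 than in CL11. Twist1 was at least 2.02-fold higher (change 1.34 ± 0.27, adjusted p = 0.00176), with no overlap between the arrays. Snai1 was 1.72-fold higher (change 0.78 ± 0.26, adjusted p = 0.0477), a call that was lost when any of 5 of the 6 arrays was left out (highest adjusted p = 0.169) and with median scaling (adjusted p = 0.168). Twist1 was also 1.99-fold lower in IP14D-101 than in IP14D-1 (adjusted p = 0.0115), which was lost without IP14D-101 replicate 2 (adjusted p = 0.0552) and with median scaling (adjusted p = 0.121). In IP20D-3 against IP14D-1, Twist1 changed by -0.91 and Snai1 by -0.72 and neither passed. Among the lines, the fibroblast sums above were also highest in IP14D-1, and their part in these differences was not tested.

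Zeb1 was lower in all 3 iPS lines than in CL11. It was 1.72-fold lower in IP14D-1 (change -0.78 ± 0.17, adjusted p = 0.00298), 2.08-fold lower in IP14D-101 (-1.06, adjusted p = 6.04e-04) and 1.80-fold lower in IP20D-3 (-0.85, adjusted p = 0.00175). The 3 comparisons share the CL11 arrays. Between the iPS lines the Zeb1 changes were -0.27, -0.06 and 0.21, and none passed. The other Zeb1 probe sets were below background in every line and could not repeat the comparison.

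Prrx2 was lower in IP20D-3. The difference was at least 1.84-fold against CL11 (change -1.15 ± 0.26, adjusted p = 0.00501) and at least 2.03-fold against IP14D-101 (-1.30, adjusted p = 0.00172). Against IP14D-1 it was -0.72 and did not pass. Zeb2 at 1458941_at was not called between any pair of lines, with changes from -0.16 to 0.59.

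**Figure D4:**
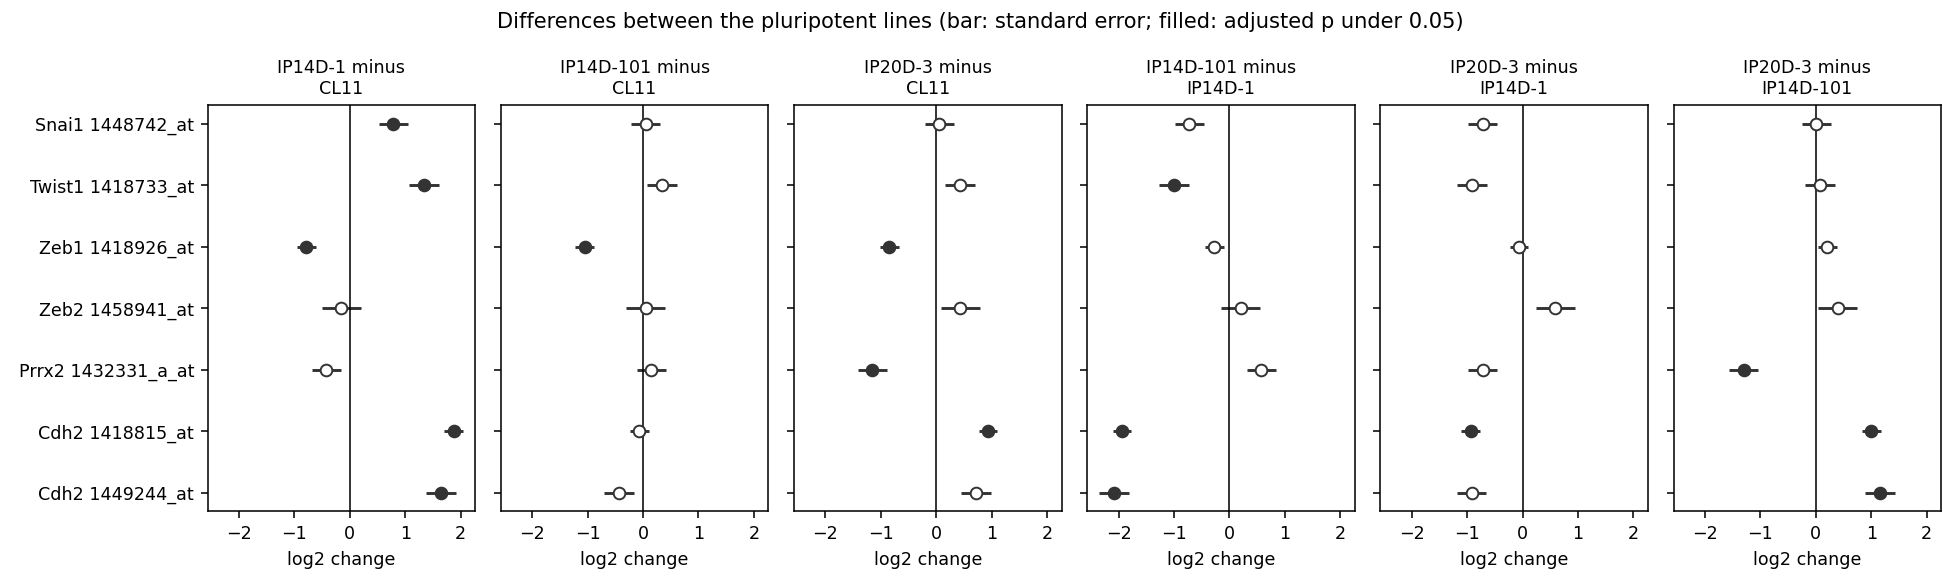
Log2 change between each pair of pluripotent lines (horizontal axis, first named line minus the second) for the 7 probe sets with a mean above background in at least 1 line, with standard errors and filled points for an adjusted p under 0.05. Cdh2 differs in 5 of the 6 pairs at 1418815_at, and Zeb1 lies below 0 in the 3 comparisons with CL11.

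Most epithelial genes of the kind that EMT factors repress were higher in the lines than in MEF. Of 20 junction and keratin genes, 18 rose in CL11 cells, 19 in IP14D-1 cells, 19 in IP14D-101 cells and 18 in IP20D-3 cells against MEF, with median changes of 3.98, 4.59, 4.33 and 4.43 beside 0.07, 0.13, 0.05 and 0.10 over all genes. The one that fell was Krt19, a keratin of simple epithelia, in IP14D-101 (change -1.93, adjusted p = 0.00457), named after its values were seen. Of all genes, each by its brightest probe set, 29.7% rose and 23.3% fell in CL11, 29.3% rose and 22.3% fell in IP14D-1, 29.9% rose and 24.2% fell in IP14D-101, and 29.9% rose and 23.2% fell in IP20D-3. The lower limit of the rise of Cdh1, the E-cadherin gene, was 98.3-fold in CL11, 133-fold in IP14D-1, 111-fold in IP14D-101 and 137-fold in IP20D-3. That of Epcam, an epithelial adhesion gene, was 50.3-fold, 57.9-fold, 75.7-fold and 73.2-fold. Cdh1 was not called between any pair of lines, its change in IP14D-1 against CL11 being 0.44 and in IP20D-3 against CL11 0.48. Of the 20 genes, 8 were higher and 0 lower in IP14D-1 than in CL11, and the counts were the same in IP20D-3 against CL11. The shares of all genes were 10.7% higher and 11.5% lower with IP14D-1, and 9.45% and 10.1% with IP20D-3. Rab25, a small GTPase of epithelial vesicle traffic, had the largest fitted rise in both, with CL11 below background.

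Regulators of the epithelial state rose as well, 10 of 10 in CL11 cells, 10 in IP14D-1 cells, 9 in IP14D-101 cells and 9 in IP20D-3 cells. Between 29.3% and 29.9% of all genes rose. Esrp1, a splicing factor of epithelial cells, rose at least 9.17-fold in CL11, 25.3-fold in IP14D-1, 15.4-fold in IP14D-101 and 28.8-fold in IP20D-3. Klf5, expressed in ES cells and epithelia, was 20.9-fold, 21.2-fold, 17.7-fold and 22.2-fold higher. Among the lines, Esrp1 was 2.76-fold higher in IP14D-1 than in CL11 and 3.14-fold higher in IP20D-3 than in CL11. Grhl2, a grainyhead factor that maintains epithelia, was 2.16-fold and 2.48-fold higher in the same comparisons.

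Effector genes of the mesenchymal state, chosen for matrix, contractile and adhesion roles, fell in 19 of 19 cases in CL11 cells, 18 in IP14D-1 cells, 19 in IP14D-101 cells and 19 in IP20D-3 cells. The median changes were -6.08, -4.36, -5.23 and -5.80, and between 22.3% and 24.2% of all genes fell. Vim, the intermediate filament of mesenchymal cells, fell 9.47-fold, 7.12-fold, 6.32-fold and 10.8-fold, and Fn1, the fibronectin gene, 4.50-fold, 4.01-fold, 3.79-fold and 2.91-fold. In IP14D-1 against CL11, 11 of the 19 rose and 2 fell, against 10.7% and 11.5% of all genes. The largest of the fitted rises were those of Tnc, Col1a1, Tagln, Acta2 and Lox, of which Tagln was 11.8-fold and Acta2 10.8-fold higher. Tagln and Acta2 are contractile genes of smooth muscle and activated fibroblasts, and Col1a1 and Tnc are also among the fibroblast markers above.

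Ligands, receptors and Smads of TGF-beta, the main signal that induces EMT factors, fell in 11 of 13 cases in CL11 cells, 9 in IP14D-1 cells, 11 in IP14D-101 cells and 12 in IP20D-3 cells. Between 22.3% and 24.2% of all genes fell. Tgfb3 fell at least 87.6-fold in each line. Tgfbr2, the type II receptor, fell 44.8-fold in CL11, 33.5-fold in IP14D-1, at least 53.0-fold in IP14D-101 and at least 56.6-fold in IP20D-3. The single gene that rose in every line was the inhibitor Smad7, named after its values were seen, by 2.10-fold, 2.02-fold, 2.83-fold and 2.33-fold. Tgfb2 was above background in IP14D-1 among the lines and was there at least 1.89-fold higher than in CL11.

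Most of the co-repressors that Snail and Zeb factors recruit rose in the lines. Of 10, 7 rose in each line, while 3 fell in CL11 and IP14D-101 cells and 2 fell in IP14D-1 and IP20D-3 cells, with a median change between 1.31 and 1.5. The share of all genes that rose was 29.3% to 29.9%, and the share that fell was 22.3% to 24.2%. The counts of co-repressors that fell are near that share. Ezh2, the Polycomb methyltransferase, was 5.15-fold, 4.80-fold, 4.83-fold and 4.94-fold higher than in MEF, and Ctbp2, a corepressor that Zeb proteins bind, was 3.45-fold, 4.45-fold, 3.41-fold and 4.25-fold higher. Of 6 measured genes that control Snail stability and nuclear entry, 4 rose in each line, and 2, 2, 1 and 2 fell. Gsk3b, the kinase that marks Snai1 for degradation, fell 2.32-fold, 2.37-fold, 2.05-fold and 2.32-fold.

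Twist partners and their inhibitors had members called in both directions. Of 7, 3 rose and 4 fell in CL11, 2 and 2 in IP14D-1, 3 and 4 in IP14D-101, and 3 and 3 in IP20D-3. The counts in IP14D-1 are close to the shares of all genes, 29.3% higher and 22.3% lower. Id1, which keeps E-proteins from DNA and lies downstream of BMP, was 10.3-fold, 7.06-fold, 8.07-fold and 5.26-fold higher than in MEF. Id2 was 2.58-fold, 8.55-fold, 2.62-fold and 6.57-fold higher. The E-protein genes Tcf4 and Tcf12 fell in every line, Tcf12 by 3.86-fold, 2.93-fold, 3.35-fold and 2.76-fold.

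Of 18 other mesenchymal transcription factors measured, 10 fell in CL11 cells, 8 in IP14D-1 cells, 8 in IP14D-101 cells and 9 in IP20D-3 cells, and 2, 2, 1 and 1 rose, where between 22.3% and 24.2% of all genes fell and between 29.3% and 29.9% rose. Foxc1, the close relative of Foxc2, fell at least 12.4-fold in each line, and Tbx15, a T-box factor of skin and limb mesenchyme, at least 15.5-fold in each. The third Snail gene, Snai3, named after its values were seen, went the other way and was higher in the lines than in MEF, where it was below background, by at least 6.77-fold in CL11, 4.03-fold in IP14D-1, 3.46-fold in IP14D-101 and 4.21-fold in IP20D-3. Of 14 cadherins and catenins, Cdh2 among them, 4 fell in CL11 cells, 4 in IP14D-1 cells, 5 in IP14D-101 cells and 3 in IP20D-3 cells. In the same order, 1, 2, 2 and 1 rose. The counts that fell are not far from the falling share of all genes. Cdh11, the cadherin of osteoblasts and fibroblasts, fell at least 306-fold in CL11, 219-fold in IP14D-1, at least 306-fold in IP14D-101 and at least 306-fold in IP20D-3.

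Genes whose signal followed each member over the 15 arrays were ranked by Pearson correlation among 13106 other genes above background in a group. The closest were Ankrd1 to Snai1 (0.991), Gskip to Snai2 (0.986), Thbs1 to Twist1 (0.992), Parp8 to Twist2 (0.973) and Coq10b to Zeb1 (0.989). Gpr153 was closest to Zeb2 (0.954), Nnmt to Prrx1 (0.981), Sptssa to Prrx2 (0.980), Wdr13 to Foxc2 (0.980) and Cdk14 to Cdh2 (0.992). The MEF arrays stand apart from the 12 others, so these values mostly describe MEF against the lines. Over the 12 arrays of the lines, a range chosen after the values were seen, Cdh2 ran closest to Mettl25 (0.983) and Tmcc3 (0.983) and most opposite to Tk1 (-0.985), and Zeb1 ran closest to Exoc3l (0.946). The arrays of 1 line lie together there too, so these are descriptions of 4 lines and carry no test.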

How the data were processed

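RNA of 15 samples, 3 for each of CL11, IP14D-1, IP14D-101, IP20D-3 and MEF, was hybridised to single-colour Affymetrix arrays. The deposited table holds linear signal intensity per probe set, which the authors made with MAS5 in Expression Console (Affymetrix; from the submitters' processing notes). Versions and the scaling target are not given in the sources used here. The trimmed means of the arrays (2% left out at each end) ran from 11198.1 to 20466, a ratio of 1.83, so each array was scaled to the mean of these, and log2(signal + 16) was taken. A fold on this scale understates the change of dim probe sets. The number of arrays limits the precision.

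Probe sets were named from the platform annotation. Of 45101 probe sets, 64 controls were left out, 34945 had 1 gene symbol, 932 several and 9160 none. No 2 arrays held identical values. A linear model with one mean per group was fitted to all 45037 probe sets with limma 3.58.1 (lmFit and eBayes with a trend) in R 4.3.3, two-sided, with Benjamini-Hochberg adjustment over all probe sets within each of 10 comparisons. "Rose" and "fell" mean an adjusted p under 0.05. On simulated data for CL11 against MEF, with 45037 probe sets, changes were planted only in probe sets with a mean clearly above background. Far fewer probe sets were changed there than were called in the real comparison. Of the planted changes, 79 of 100 of size 1 on the log2 scale and 98 of 100 of size 2 were recovered, with 13 false calls. The recovery does not apply to probe sets near or below background. A fold against a group below background was computed with that group's arrays raised to the background.

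Members and lists were chosen with earlier results of these data known. All probe sets of the members are named, and every other gene is represented by its brightest probe set with 1 gene. Of each list, up to 5 genes per comparison with the largest fitted change among the called ones above background may be named, and always Cdh1, Vim, Fn1, Epcam, Col1a1, Gata6 and Pou5f1. T was not measured by a named probe set. Same-numbered arrays did not deviate together (r from -0.024 to 0.019 over 30 pairs), so the numbers were not used as pairs. The marker lists were fibroblast, pluripotent, primitive endoderm, primitive streak, neural, blood, endothelial and muscle genes. Alternatives were quantile normalization, median scaling, no scaling, pseudocounts of 64 and 1000, a filter on background, 1 probe set per gene, fits on 2 groups, a replicate block, other background percentiles and leaving out each array.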

Additional observations from a re-analysis of the deposited data

Results flagged for a closer look

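Each of these is a difference between 2 pluripotent lines with an adjusted p under 0.05 in limma, and thereby a difference in their changes against MEF. The values are log2 changes with standard errors. No explanation is weighed.

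In IP14D-1 against CL11, Snai1 changed by 0.78 ± 0.26 (adjusted p = 0.0477), Twist1 by 1.34 ± 0.27 (adjusted p = 0.00176) and Zeb1 by -0.78 ± 0.17 (adjusted p = 0.00298). Cdh2 changed there by 1.87 ± 0.17 at 1418815_at (adjusted p = 4.29e-07) and by 1.64 ± 0.27 at 1449244_at (adjusted p = 3e-04). In IP14D-101 against CL11, Zeb1 changed by -1.06 ± 0.17 (adjusted p = 0.000604). In IP20D-3 against CL11, Zeb1 changed by -0.85 ± 0.17 (adjusted p = 0.00175), Prrx2 by -1.15 ± 0.26 (adjusted p = 0.00501) and Cdh2 1418815_at by 0.94 ± 0.17 (adjusted p = 0.000667).

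In IP14D-101 against IP14D-1, Twist1 changed by -0.99 ± 0.27 (adjusted p = 0.0115), Cdh2 1418815_at by -1.94 ± 0.17 (adjusted p = 2.69e-07) and Cdh2 1449244_at by -2.08 ± 0.27 (adjusted p = 2.24e-05). In IP20D-3 against IP14D-1, Cdh2 1418815_at changed by -0.94 ± 0.17 (adjusted p = 0.00213). In IP20D-3 against IP14D-101, Prrx2 changed by -1.30 ± 0.26 (adjusted p = 0.00172), Cdh2 1418815_at by 1.00 ± 0.17 (adjusted p = 0.000339) and Cdh2 1449244_at by 1.15 ± 0.27 (adjusted p = 0.00524).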

How the results depend on the processing

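Of 1216 single values of members against MEF under the alternatives, 1201 kept their direction and their side of the threshold, 11 lost the call, 4 gained it and 0 reversed. Of 624 between lines, 558 kept both, 13 lost the call, 18 gained it and 35 reversed; the cause was not tested. With quantile normalization the reversed changes were Cdh2 in IP14D-101 against CL11 (0.049), Snai1 in IP20D-3 against CL11 (-0.065), and Snai1 (-0.23) and Twist1 (-0.16) in IP20D-3 against IP14D-101. With median scaling they were Cdh2 in IP14D-101 against CL11 (0.055), Snai1 in IP20D-3 against CL11 (-0.070), Zeb1 in IP14D-101 against IP14D-1 (0.090) and in IP20D-3 against IP14D-1 (0.050), and Snai1 (-0.24), Twist1 (-0.17) and Zeb1 (-0.040) in IP20D-3 against IP14D-101. With no scaling they were Zeb2 in IP14D-1 against CL11 (0.17), Snai1 (-0.10), Zeb2 (-0.11) and Prrx2 (-0.0078) in IP14D-101 against CL11, Snai1 in IP20D-3 against CL11 (-0.16), Zeb2 in IP14D-101 against IP14D-1 (-0.28) and Snai1 in IP20D-3 against IP14D-101 (-0.061). None of these was called.

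Counts of member probe sets moved as follows. Quantile normalization and median scaling each gave 3 higher in IP14D-1 against CL11 and 1 higher in IP14D-101 against IP14D-1. No scaling gave 1 lower in IP14D-1 against CL11, 7 lower in IP14D-101 against IP14D-1 and 10 lower in IP20D-3 against IP14D-1. A pseudocount of 1000 and the fits on 2 groups each gave 1 lower in IP14D-1 against CL11, 1 lower in IP14D-101 against CL11, and 0 higher and 2 lower in IP20D-3 against IP14D-1; the fits on 2 groups also gave 1 higher in IP20D-3 against IP14D-101. Testing only probe sets above background in a group gave 4 lower in IP20D-3 against IP14D-1. With 1 probe set per gene, 10 of 10 genes were lower than MEF in each line, 3 higher and 1 lower in IP14D-1 against CL11, 1 lower in IP14D-101 against CL11, 0 higher and 2 lower in IP20D-3 against IP14D-1, and 1 higher in IP20D-3 against IP14D-101. With the 99th percentile as background, 3 probe sets were above it in each of CL11, IP14D-101 and IP20D-3. The replicate block gave 2 lower in IP20D-3 against IP14D-1, and moved no other count by over 1.5 times.

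Leaving out 1 array gave 21 to 22 lower than MEF in CL11, IP14D-1 and IP14D-101 and 20 to 22 in IP20D-3, with 0 to 1 higher in IP14D-1 (1 without MEF replicate 2). It gave 3 to 4 higher (3 without any 1 IP14D-1 array) and 1 to 2 lower (1 without CL11 replicate 3) in IP14D-1 against CL11, 1 to 3 lower (1 without CL11 replicate 3) in IP14D-101 against CL11, and 1 to 2 higher (2 without CL11 replicate 2 or 3) and 2 to 4 lower (4 without IP20D-3 replicate 3) in IP20D-3 against CL11. It gave 3 to 4 lower in IP14D-101 against IP14D-1, 0 to 1 higher (0 without any 1 IP14D-1 array or IP20D-3 replicate 1 or 3) and 1 to 2 lower (2 without any 1 IP20D-3 array) in IP20D-3 against IP14D-1, and 3 to 4 higher and 1 to 3 lower (2 without IP14D-101 replicate 3, 3 without IP20D-3 replicate 3) in IP20D-3 against IP14D-101. Changes that crossed 0 were Zeb2 in IP14D-1 against CL11 (-0.58 to 0.28), Snai1 (-0.072 to 0.20), Zeb2 (-0.050 to 0.20) and Cdh2 (-0.22 to 0.11) in IP14D-101 against CL11, Snai1 in IP20D-3 against CL11 (-0.17 to 0.42), Zeb2 in IP14D-101 against IP14D-1 (-0.23 to 0.62), Zeb1 in IP20D-3 against IP14D-1 (-0.16 to 0.11), and Snai1 (-0.22 to 0.36) and Twist1 (-0.19 to 0.33) in IP20D-3 against IP14D-101. Signal near background limits the lower folds, and 3 arrays per group limit the rest.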

Other observations

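Other marker lists were measured in the same arrays. Of 9 blood markers, 8 fell in CL11 cells, 7 in IP14D-1 cells, 8 in IP14D-101 cells and 8 in IP20D-3 cells against MEF, and 1, 1, 0 and 1 rose. Of 7 endothelial markers, 4 rose in each line, and 1, 1, 2 and 1 fell. Of 6 muscle markers, 3, 3, 3 and 2 fell and 0 rose in any line. Between 22.3% and 24.2% of all genes fell and between 29.3% and 29.9% rose. The counts of endothelial markers that fell are not far from the falling share. Of 10 primitive streak markers, 2 rose in CL11 cells, 6 in IP14D-1 cells, 3 in IP14D-101 cells and 3 in IP20D-3 cells, where 29.3% to 29.9% of all genes rose. Both means were below background for 3 of the 6 rises in IP14D-1 cells, and for 1 of the 3 in IP14D-101 cells and in IP20D-3 cells alike. Mixl1, a streak homeobox factor, was above background in IP14D-1 alone. The summed signal of the streak markers ran from 25615.5 to 31796.8 in IP14D-1 and from 17144.3 to 25305.8 in CL11. Id2, an inhibitor of E-proteins, was 3.31-fold higher in IP14D-1 than in CL11 and 2.54-fold higher in IP20D-3 than in CL11. Id1, also an inhibitor of E-proteins, was 1.45-fold lower in IP14D-1 than in CL11 and 1.95-fold lower in IP20D-3 than in CL11.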
